A study of Mus musculus with 4 samples.

Results

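The proteasome genes of tumour-infiltrating T cells were compared between Map4k1 knockout (HPK1-/-) and wild-type mice. Members were the protein-coding genes whose symbol begins with Psm, a letter from a to g and a digit, in the deposited table with symbols from GENCODE M21. The pattern gave 50 of the 21146 genes of the table, and 48 of them passed the filter on low values. Of the 50, 49 encode proteasome subunits, activators, inhibitors or assembly factors, or a near-identical copy of such a gene. The other match, Psmc3ip, encodes a partner of meiotic recombinases and no subunit, so it is described apart. The study had 2 knockout (KO) and 2 wild-type (WT) libraries of C57BL/6 mice, from T cells taken 21 days after tumour inoculation. The labels did not give the tumour, the allele, the sorting gate or whether libraries came from separate mice, so p-values reflect variation among 4 libraries, and part of that may be technical. Values are FPKM (fragments per kilobase of transcript, scaled per library), which may be compared between genes of different length.

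The proteasome is the protease that degrades ubiquitin-tagged proteins. Its barrel-shaped core has outer rings of alpha subunits and inner rings of beta subunits, of which Psmb5, Psmb6 and Psmb7 encode the active sites. In lymphocytes and in cells exposed to interferon gamma these can be replaced by the inducible subunits of Psmb8, Psmb9 and Psmb10, which make the immunoproteasome and change which peptides reach MHC class I. The cap that sits on the core binds ubiquitin chains, removes them and unfolds the substrate with a ring of ATPases. Other activators can take the place of the cap, and dedicated chaperones assemble core and cap.

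The knockout check came first. Map4k1, the gene of the HPK1 kinase, had 20.6 and 26.5 FPKM in the KO libraries, against 48.9 and 41.2 FPKM in the WT libraries, which is -0.91 as a log2 fold change of KO over WT (SE 0.15, adjusted p = 0.0134). Transcript was lower in both KO libraries but not absent. All 10 T cell markers were expressed, with Cd3e at 148 and 142 FPKM in KO and 149 and 153 FPKM in WT. At an adjusted p under 0.05, 3 (30%) were higher in KO (Cd2, Trac, Lck) and 2 (20%) lower (Cd3d, Trbc2). Of all tested genes 15.4% were higher and 13% lower. Of those with a mean of at least 50 FPKM 20.4% were higher and 17.7% lower. The 10 macrophage and dendritic cell markers in the table summed to 4.47 and 2.89 FPKM in KO, against 5.16 and 4.68 FPKM in WT, and Csf1r was under 1e-08 FPKM in all 4 libraries, that is, at 0 for practical purposes. The B cell markers Cd79a and Cd79b summed to 4.96 and 4.55 FPKM in KO and 3.93 and 4.49 FPKM in WT. Markers of NK cells summed to 78.2 and 81.9 FPKM in KO, against 105 and 94.1 FPKM in WT, those of tumour and stroma to 15.2 and 15.01 FPKM in KO, against 20.2 and 26.8 FPKM in WT, and those of red cells to 2.76 and 2.37 FPKM in KO, against 6.60 and 7.80 FPKM in WT. Some single markers fell more than these sums. Klrb1c of NK cells had 3.95 and 3.81 FPKM in KO, against 14.7 and 14.4 FPKM in WT (adjusted p = 0.00126). Eomes, which made up most of the NK cell sum, had 74.3 and 78.1 FPKM in KO, against 89.8 and 79.6 FPKM in WT (adjusted p = 0.263). Ncr1, also in that list, was at 0 in KO and at 0.0767 and 0.0821 FPKM in WT. Epcam, an epithelial marker, had 2.02 and 1.86 FPKM in KO, against 6.64 and 6.94 FPKM in WT (adjusted p = 0.00318). Krt8 and Krt18 of the same list did not exceed 0.0320 and 0.227 FPKM in any library and were under the filter on low values. Most of the tumour and stroma sum came from Pecam1. It had 12.3 and 12.2 FPKM in KO, against 12.7 and 16.5 FPKM in WT (adjusted p = 0.278). The part of these other cell types in the values below was not tested. In bulk RNA, fewer cells of a type and less RNA per cell cannot be told apart.

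Promoters of 42 members were found in the RefSeq table (build GRCm38.p6), as windows from 250 bases before to 50 bases after the start site. Below are those of the cap gene with the largest rise (Psmd13, chr7:140882144-140882443, plus strand), of a second cap gene that rose (Psmd2, chr16:20651402-20651701, plus strand) and of the core gene that fell (Psmb5, chr14:54617946-54618245, minus strand). In the cap genes capitals mark the core of sites for ETS family factors, CGGAAG on either strand, and in Psmb5 the core of the antioxidant response element, TGACNNNGC.
Psmd13: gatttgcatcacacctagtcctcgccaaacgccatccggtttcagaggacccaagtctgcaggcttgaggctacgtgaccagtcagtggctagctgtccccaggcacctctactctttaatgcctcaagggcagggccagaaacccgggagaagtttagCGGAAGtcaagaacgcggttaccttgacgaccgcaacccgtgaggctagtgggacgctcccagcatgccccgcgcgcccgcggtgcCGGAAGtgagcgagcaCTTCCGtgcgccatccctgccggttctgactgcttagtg
Psmd2: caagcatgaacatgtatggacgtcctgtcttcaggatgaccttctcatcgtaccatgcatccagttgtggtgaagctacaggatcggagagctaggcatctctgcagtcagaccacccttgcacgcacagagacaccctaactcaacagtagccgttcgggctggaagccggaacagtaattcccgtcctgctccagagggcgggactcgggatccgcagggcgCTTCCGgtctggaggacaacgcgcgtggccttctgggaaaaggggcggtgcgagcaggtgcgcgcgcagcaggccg
Psmb5: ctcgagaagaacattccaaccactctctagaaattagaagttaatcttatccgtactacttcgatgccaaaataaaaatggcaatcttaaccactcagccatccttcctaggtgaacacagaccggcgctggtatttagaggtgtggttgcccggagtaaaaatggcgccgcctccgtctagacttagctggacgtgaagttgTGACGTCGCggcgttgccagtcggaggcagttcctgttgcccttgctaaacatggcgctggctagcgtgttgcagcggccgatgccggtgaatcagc

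CGGAAG stood in 13 of the 14 cap subunit promoters found (92.9%), against 38.5% of the promoters of tested genes and 18.8% of all promoters. It was searched for after the Psmd13 promoter had been read, so its share there is a description. Some genes have several start sites, and a match in any window counts. The cap genes that rose held it in 4 of the 4 found, and so did 9 of 9 non-ATPase and 4 of 5 ATPase promoters whether or not the gene passed. It stood in none of the 3 immunoproteasome promoters and in 4 of the 11 promoters of the constitutive core. TGACNNNGC, searched on both strands, was in 6 of 42 member promoters (14.3%), those of Psmb5, Psmb6, Psmc6, Psmd9, Psmd12 and Psme4, against 17.0% of tested genes. The core of the interferon response element, a pair of GAAA runs with 2 bases between them on either strand, was in 5 of 42 (11.9%), against 3.91% of tested genes, and in none of the 3 immunoproteasome windows. CCAAT on either strand was in 15 of 42 (35.7%), against 43.5%. None of these motifs contains another, and a match is only a run of letters.

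Over all 48 tested members 9 rose (18.8%) and 4 fell (8.33%) in KO, where "rose" and "fell" mean an adjusted p under 0.05 in a limma fit over all tested genes. Of all 11947 tested genes 28.4% passed, 15.4% as higher and 13% as lower. By the number of calls alone, the members taken as a whole stood near that background. Both KO libraries lay above both WT libraries for 26 members (54.2%), against 38.6% of tested genes, and below them for 9 (18.8%), against 31.4%. The fold change was above 0 for 34 of the 48 (70.8%), against 53.8% of tested genes, with a median of 0.11 on the log2 scale against 0.04. Most members are abundant, and among tested genes with a mean of at least 50 FPKM 38.1% passed, 20.4% as higher and 17.7% as lower. At that level 39.3% of genes had both KO libraries above both WT libraries, 36.2% had them below, and 51.8% had a fold change above 0. Of the 39 members at that level 8 rose (20.5%) and 2 fell (5.13%). All members together took 0.826% and 0.827% of the FPKM total in KO, against 0.736% and 0.712% in WT. That total was 871584 and 878585 in KO, against 975047 and 975107 in WT, while the summed FPKM of the members was 7198 and 7269 in KO and 7181 and 6948 in WT.

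Cap subunits had more transcript in KO libraries than in WT libraries while the constitutive core as a whole had nearly the same amount, in the FPKM as deposited. The 17 cap subunits within the name pattern summed to 2189 and 2175 FPKM in KO, against 1907 and 1895 FPKM in WT. The 14 constitutive core subunits summed to 3120 and 3122 FPKM in KO, against 3131 and 3129 FPKM in WT. That sum joins differences in opposite directions. Its alpha subunits summed to 1421 and 1410 FPKM in KO, against 1324 and 1399 FPKM in WT. Its beta subunits summed to 1699 and 1712.5 FPKM in KO, against 1807 and 1730.5 FPKM in WT. The mean cap subunit was therefore at 0.578 and 0.574 of the mean core subunit in KO, against 0.502 and 0.499 in WT. This ratio is taken within a library, so it does not depend on how libraries were scaled to each other. The near equality of the core does: with libraries scaled to equal FPKM totals the median log2 fold change was 0.12 for the core and 0.32 for the cap, against -0.03 and 0.17 as deposited. No test was run on the ratio, since 2 libraries against 2 cannot give an exact two-sided permutation p below 1 in 3.

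**Figure D1:**
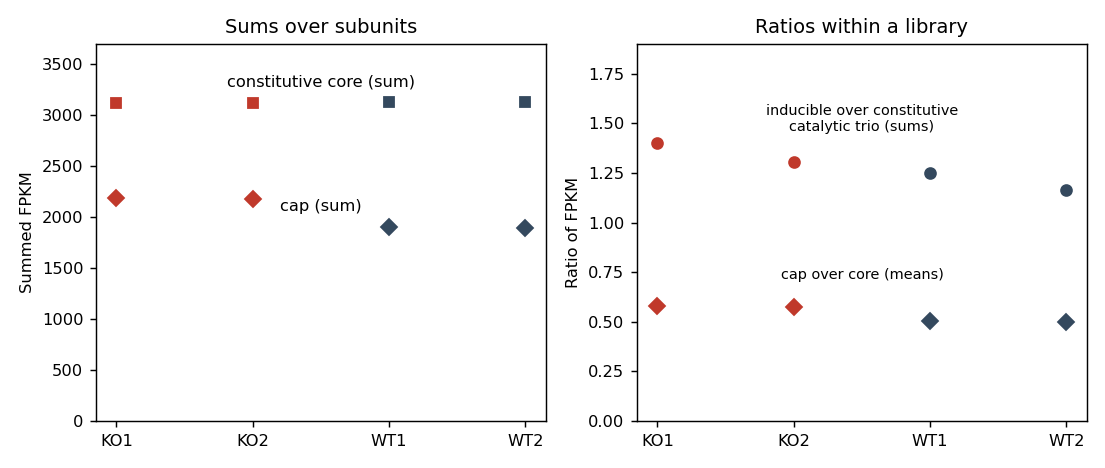
The left panel gives the FPKM summed over the 14 constitutive core and the 17 cap subunits in each library, and the right panel the ratio of cap to core (means over subunits) and of the inducible to the constitutive catalytic trio (sums). Red symbols are KO and dark symbols WT; the core sums lie between 3120 and 3131 FPKM, while the cap sums and both ratios are higher in the KO libraries.

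By gene, 6 of the 17 cap subunits within the name pattern rose in KO (35.3%) and none fell. By comparison 15.4% of all tested genes rose, and 20.4% of those with a mean of at least 50 FPKM, as all 17 have. Of cap subunits outside the name pattern, Sem1 fell (adjusted p = 0.0211) and Adrm1 did not pass (adjusted p = 0.580). Both KO libraries lay above both WT libraries for 13 of the 17 (76.5%), against 38.6% of tested genes and 39.3% of those at 50 FPKM or more. The median log2 fold change of the cap was 0.17 (KO over WT, on log2(FPKM + 1)), against 0.04 for all tested genes. With either KO library left out no cap subunit passed, without WT replicate 1 the number was 2, and without WT replicate 2 it was 4. Scaling libraries by median ratios left 3 rises, scaling to equal FPKM totals gave 11 and the replicate block gave 1.

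The cap subunits that rose were Psmd13, Psmd6 and Psmd7 of the lid, the scaffolds Psmd1 and Psmd2, and the ATPase Psmc3. Psmd13, a subunit of the lid, had 207 and 205 FPKM in KO, against 130 and 158 FPKM in WT (log2 fold change 0.52, SE 0.11, adjusted p = 0.0242). The KO libraries were close together and both stood well above the WT libraries, which were further apart. Exons of Psmd13 share 342 bases with Sirt3 on the opposite strand, 10.1% of its exonic length, and the strand setting of the counting is not given. Sirt3 was far less abundant than Psmd13 in every library, at 19.8 and 20.7 FPKM in KO and 16.4 and 14.2 FPKM in WT.

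Psmd2, the large scaffold that receives ubiquitin carriers, had 139 and 136 FPKM in KO, against 108 and 112 FPKM in WT (log2 fold change 0.32, SE 0.07, adjusted p = 0.0301). Psmd1, the other large scaffold, had 81.5 and 80.5 FPKM in KO, against 61.3 and 66.1 FPKM in WT (log2 fold change 0.34, SE 0.08, adjusted p = 0.0307). Both genes were separated between genotypes by more than the spread within either. The lid subunit Psmd7, partner of the deubiquitinase, had 108 and 107 FPKM in KO, against 88.4 and 89.7 FPKM in WT (adjusted p = 0.0418). Psmd6, also of the lid, had 121 and 120 FPKM in KO, against 98.5 and 102 FPKM in WT (adjusted p = 0.0437). Values of replicates differed by a few FPKM at most for this pair of genes. The calls of Psmd1, Psmd2, Psmd6 and Psmd7 were all lost without the variance trend of the fit, and with the replicate block. Quantile normalization lost those of Psmd1, Psmd6 and Psmd7, and scaling by median ratios those of Psmd6 and Psmd7.

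The other non-ATPase subunits did not pass. Psmd14, the deubiquitinase of the lid, had 98.0 and 101 FPKM in KO, against 87.8 and 99.4 FPKM in WT, with overlapping groups. Psmd4, a ubiquitin receptor, had 160 and 142 FPKM in KO, against 140 and 146 FPKM in WT. Of these 17 cap subunits Psmd8 alone had a fold change below 0, at 202 and 200 FPKM in KO and 219 and 200 FPKM in WT (log2 fold change -0.06, SE 0.08, adjusted p = 0.626). Psmd3, Psmd11 and Psmd12 had fold changes of 0.23, 0.16 and 0.09 on the log2 scale, with both KO libraries above both WT libraries, and adjusted p of 0.210, 0.168 and 0.412.

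All 6 ATPases had fold changes above 0, against 53.8% of all tested genes. A single one rose (16.7%), near the 15.4% of all tested genes and the 20.4% of those at 50 FPKM or more. Both KO libraries lay above both WT libraries for 5 of the 6 (83.3%), against 38.6% of tested genes. Psmc3 had 173 and 165 FPKM in KO, against 142 and 136 FPKM in WT (log2 fold change 0.28, SE 0.08, adjusted p = 0.0434). Psmc1 had 166 and 178 FPKM in KO, against 139 and 147 FPKM in WT (log2 fold change 0.27, SE 0.08, adjusted p = 0.0606). Neither gene overlapped between genotypes. The call of Psmc3 was lost with scaling by median ratios, without the variance trend and with the replicate block. Psmc4, the ATPase with the highest p, had 121 and 130 FPKM in KO and 133 and 102 FPKM in WT (adjusted p = 0.569), with the WT libraries on both sides of the KO values. Psmc2, Psmc5 and Psmc6 had log2 fold changes of 0.11, 0.12 and 0.17, small in size but with no overlap between genotypes.

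**Figure D2:**
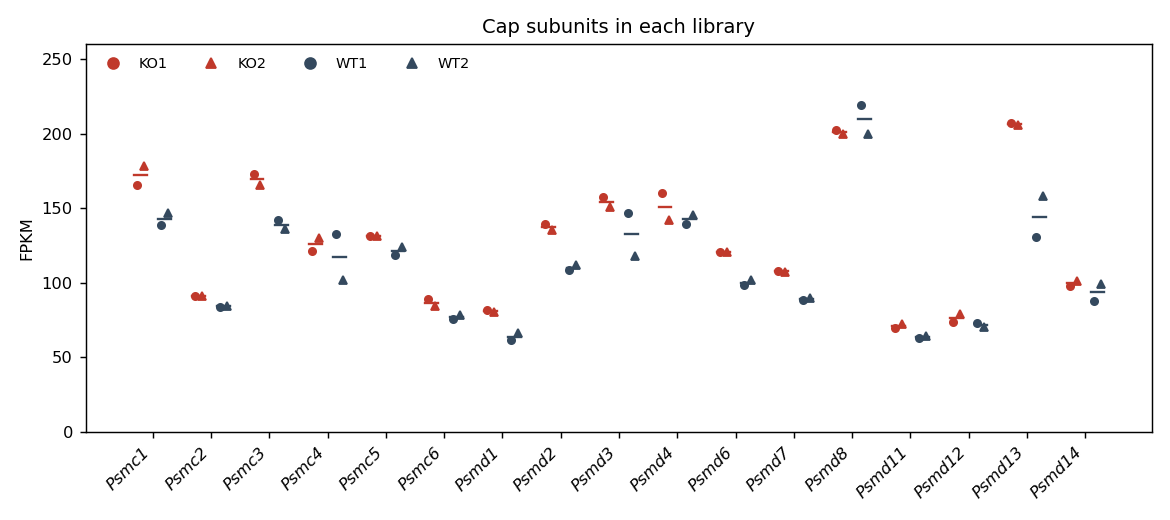
FPKM of each of the 17 cap subunits in each library, with KO in red to the left of WT in dark, replicate 1 as a circle and replicate 2 as a triangle, and a line at each mean of 2 libraries. The KO points stand above the WT points for 13 of the 17 genes, Psmd13 with the widest gap, and overlap for Psmc4, Psmd4, Psmd8 and Psmd14.

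Of the 14 constitutive core subunits 1 rose and 1 fell (7.14% each), against 15.4% and 13% of all tested genes. The median log2 fold change was -0.03, and 7 of the 14 were above 0 (50%), against 53.8% of tested genes. None of the 7 alpha subunits, which form the outer rings and the gate, passed. Psma2 had 283 and 272 FPKM in KO, against 229 and 252 FPKM in WT (log2 fold change 0.21, SE 0.08, adjusted p = 0.117). Psma7, with the highest p of the alpha subunits, had 332 and 314 FPKM in KO, against 310 and 332 FPKM in WT, with the genotypes interleaved. The range of the alpha fold changes was -0.18 to 0.21 on the log2 scale.

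Psma3 had 120 and 122 FPKM in KO, against 134 and 140 FPKM in WT (log2 fold change -0.18, SE 0.07, adjusted p = 0.123). Its value is uncertain, because a processed pseudogene, Gm13835, matched 662 bases of its coding sequence at 100% identity and was listed at 143 and 146 FPKM in KO and 139 and 149 FPKM in WT. The sum of the pair was 263 and 268 FPKM in KO, against 273 and 289 FPKM in WT, lower in both KO libraries. How the counting divided shared reads is not given in the sources used here.

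Among the beta subunits, Psmb2, a structural subunit, rose to 362 and 381 FPKM in KO, against 268 and 306 FPKM in WT (log2 fold change 0.37, SE 0.09, adjusted p = 0.0379). Psmb5, the gene of the chymotrypsin-like active site and the target of bortezomib, fell to 159 and 176 FPKM in KO, against 246 and 208 FPKM in WT (log2 fold change -0.43, SE 0.11, adjusted p = 0.0400). The genotypes did not overlap for either gene, though WT replicate 1 alone set much of the height of the WT mean for Psmb5. Both calls were lost without WT replicate 1 and without either KO library, and the fall of Psmb5 had an adjusted p of 0.0984 when libraries were scaled to equal totals. Psmb1, a structural neighbour of the active sites, had 186 and 174 FPKM in KO, against 207 and 215 FPKM in WT (log2 fold change -0.23, SE 0.08, adjusted p = 0.0795). Psmb3 was the most abundant constitutive core gene, at 417 and 398 FPKM in KO and 378 and 383 FPKM in WT, with an adjusted p of 0.349.

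The inducible subunits did not pass in either direction in the fit as reported. Psmb8, which replaces Psmb5, was the most abundant of all 50 members, at 472 and 478 FPKM in KO and 595 and 502 FPKM in WT (log2 fold change -0.20, SE 0.10, adjusted p = 0.193). Psmb9, which replaces Psmb6, had 126 and 123 FPKM in KO and 129 and 115 FPKM in WT (log2 fold change 0.04, SE 0.09, adjusted p = 0.775). Psmb10, which replaces Psmb7, had 130 and 127 FPKM in KO and 121 and 101 FPKM in WT (log2 fold change 0.22, SE 0.11, adjusted p = 0.172). The KO values were below both WT values for Psmb8, between them for Psmb9 and above both for Psmb10. Psmb10 passed as higher with equal FPKM totals (adjusted p = 0.0411), without WT replicate 1 (adjusted p = 0.0404) and with a GC trend removed, and Psmb8 passed as lower without WT replicate 2 (adjusted p = 0.0424).

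Their constitutive counterparts other than Psmb5 did not pass. Psmb6, the caspase-like active site, had 202 and 200 FPKM in KO and 265 and 216 FPKM in WT (log2 fold change -0.25, SE 0.11, adjusted p = 0.155). Psmb7, the trypsin-like active site, had 158 and 182 FPKM in KO and 166 and 192 FPKM in WT (adjusted p = 0.654). The KO libraries were lower than both WT libraries for Psmb6 and interleaved with them for Psmb7.

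Each inducible subunit was higher relative to its constitutive counterpart in KO on average. The ratio of Psmb8 to Psmb5 was 2.97 and 2.72 in KO, against 2.42 and 2.42 in WT. The ratio of Psmb9 to Psmb6 was 0.625 and 0.615 in KO, against 0.485 and 0.532 in WT. Neither of these ratios overlapped between genotypes, and neither depends on the scaling between libraries. The ratio of Psmb10 to Psmb7 was 0.823 and 0.701 in KO and 0.730 and 0.524 in WT, so the genotypes overlapped. For the sums of the trios the ratio was 1.40 and 1.31 in KO, against 1.25 and 1.17 in WT. The higher ratio does not mean more transcript of the inducible trio as a whole. That trio summed to 728 and 728.5 FPKM in KO, against 844 and 717 FPKM in WT. Psmb5, Psmb6 and Psmb8 were lower in both KO libraries than in both WT libraries, and Psmb10 was higher.

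**Figure D3:**
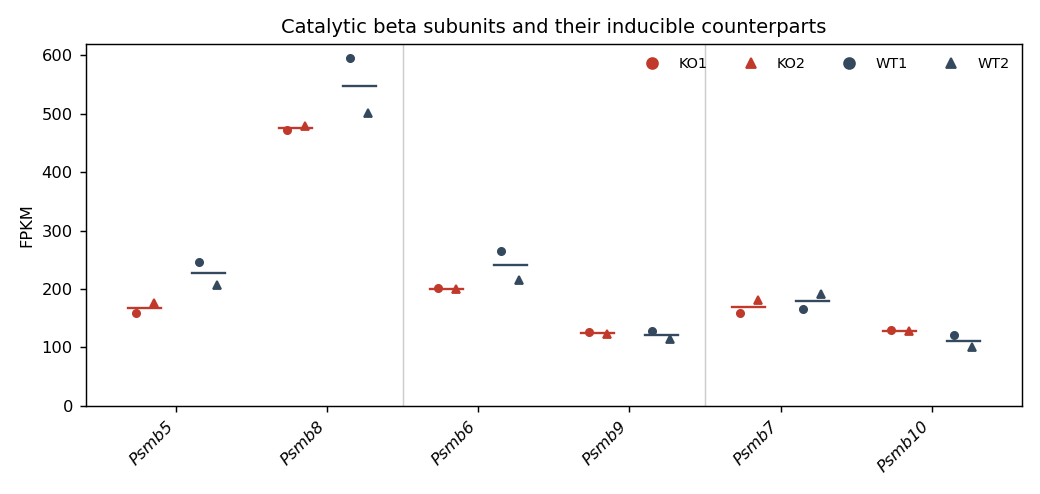
FPKM of the constitutive catalytic subunits, each beside its inducible counterpart, in each library, with KO in red to the left of WT in dark, circles for replicate 1, triangles for replicate 2 and a line at each mean of 2 libraries. Psmb8 lies between 472 and 595 FPKM, above Psmb5 in every library, while Psmb9 and Psmb10 lie below their counterparts in every library.

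Psmb8 and Psmb9 lie near each other in the MHC region, Psmb8 at 34197721 to 34201454 on the plus strand and Psmb9 at 34181987 to 34187764 on the minus strand of chromosome 17 (GRCm38). Exons of Psmb9 share 212 bases with those of Tap1 on the opposite strand, 5.79% of its exonic length. Tap1, a subunit of the peptide transporter into the endoplasmic reticulum, had 120 and 116 FPKM in KO and 117 and 102 FPKM in WT, and did not pass (adjusted p = 0.390). The tissue-specific core genes Psma8, of the testis, and Psmb11, of thymic epithelium, were listed at 0 in 3 libraries and at 0.0300 and 0.0215 FPKM in KO replicate 2, and these are the 2 members under the filter.

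Interferon gamma, the cytokine that induces the immunoproteasome, had little transcript in KO, while genes of its signalling axis moved in both directions. Ifng had 9.27 and 10.2 FPKM in KO, against 478 and 465 FPKM in WT (log2 fold change -5.46, SE 0.08, adjusted p = 2.93e-05). Irf1, a transcription factor that activates Psmb8, Psmb9 and Psmb10, rose to 77.7 and 75.2 FPKM in KO, against 60.5 and 58.7 FPKM in WT (log2 fold change 0.35, SE 0.07, adjusted p = 0.0244). In this axis 10 genes were tested, of which 1 rose (10%) and 4 fell (40%), against 15.4% and 13% of all tested genes, with Irf8, Socs1 and Jak2 lower beside Ifng, with log2 fold changes of -0.96, -0.71 and -0.47. The median log2 fold change of the list was -0.17.

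Of 12 tested genes of MHC class I loading, 3 rose (25%) and none fell, against 15.4% of all tested genes and 20.4% of those at 50 FPKM or more that rose. The median log2 fold change was 0.09, and none of the 3 passed with either KO library left out. They were Canx, a chaperone of glycoproteins, Erap1, the peptide-trimming enzyme, and Nlrc5, the transactivator of class I genes and of Psmb9. Canx had 237 and 232 FPKM in KO, against 155 and 166 FPKM in WT (log2 fold change 0.55, SE 0.08, adjusted p = 0.00964). Erap1 had a log2 fold change of 0.43 (adjusted p = 0.0254). Nlrc5 had 91.2 and 90.7 FPKM in KO, against 70.0 and 73.0 FPKM in WT (adjusted p = 0.0255). The class I heavy chains H2-K1 and H2-D1, with log2 fold changes of -0.11 and -0.16, and B2m, with -0.08, did not pass and were named after their values were seen.

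Of the 3 assembly factors for the cap 2 fell, where 13% of all tested genes fell, a count that rests on few genes. Psmd10, which encodes gankyrin, a chaperone of the ATPase ring, fell to 16.2 and 18.2 FPKM in KO, against 24.0 and 23.7 FPKM in WT (log2 fold change -0.45, SE 0.10, adjusted p = 0.0249). Psmd9, another chaperone of that ring, fell to 16.0 and 15.1 FPKM in KO, against 21.6 and 19.4 FPKM in WT (log2 fold change -0.38, SE 0.10, adjusted p = 0.0412). The genotypes were separated for both genes, and both calls were lost at equal totals, without WT replicate 1 and without either KO library, and that of Psmd10 without WT replicate 2 as well. Psmd5, the remaining chaperone, had 30.2 and 24.1 FPKM in KO, against 18.3 and 23.9 FPKM in WT (log2 fold change 0.36, SE 0.17, adjusted p = 0.166), with the closest KO and WT values almost equal.

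Dedicated chaperones of the core did not pass. Psmg1 had 29.1 and 31.2 FPKM in KO, against 23.4 and 25.5 FPKM in WT (log2 fold change 0.29, SE 0.09, adjusted p = 0.0649). Psmg4 had 78.5 and 74.6 FPKM in KO, against 82.1 and 82.1 FPKM in WT (adjusted p = 0.352). Psmg3 had 38.5 and 40.4 FPKM in KO and 40.3 and 35.1 FPKM in WT (adjusted p = 0.634). Psmg2 was at 42.2 and 45.9 FPKM in KO and 37.6 and 43.5 FPKM in WT.

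Pomp, the maturation factor of the core, lies outside the symbol pattern and had a larger fitted fold change than any member. It had 187 and 249 FPKM in KO, against 474 and 412 FPKM in WT (log2 fold change -1.03, SE 0.16, adjusted p = 0.0112). Both KO libraries were far below both WT libraries, although the KO libraries differed from each other. Its call held with any single library left out, with adjusted p up to 0.0466, and was lost with no filter on low values (adjusted p = 0.0709).

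Among 23 tested partners of the proteasome, Pomp included, 3 rose and 3 fell (13% each), close to the 15.4% and 13% of all tested genes, with a median log2 fold change of 0.06. Those that rose were Nfe2l2, the oxidative stress factor NRF2, Nploc4, a cofactor of the p97 segregase, and Ecpas, a proteasome adaptor. Nfe2l2 had 24.6 and 25.2 FPKM in KO, against 16.5 and 18.3 FPKM in WT (adjusted p = 0.0180). Nploc4 had 44.6 and 45.9 FPKM in KO, against 31.4 and 35.5 FPKM in WT (log2 fold change 0.43, SE 0.09, adjusted p = 0.0257). Both genes were separated between the genotypes. Beside Pomp, Sem1, the smallest lid subunit, and Akirin2, a nuclear import factor of proteasomes, fell. Sem1 had 42.9 and 46.0 FPKM in KO, against 58.7 and 59.3 FPKM in WT (adjusted p = 0.0211), so this cap subunit outside the name pattern went the other way from those that rose. Nfe2l1, the factor that raises proteasome genes when proteasome activity is short, did not pass, at 46.5 and 40.6 FPKM in KO and 51.8 and 50.04 FPKM in WT (adjusted p = 0.136).

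Of 5 tested genes for ubiquitin and its activating enzymes, 1 fell (20%) and none rose, against 13% and 15.4% of all tested genes, with a median log2 fold change of -0.19. Ubb, a polyubiquitin gene, had 482 and 475 FPKM in KO, against 715 and 624 FPKM in WT (log2 fold change -0.48, SE 0.09, adjusted p = 0.0203).

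Among 6 activator and inhibitor genes 1 rose and 1 fell (16.7% each), against 15.4% and 13% of all tested genes. The 11S activator, induced by interferon gamma, is a ring of the products of Psme1 and Psme2. Psme1 had 339 and 324 FPKM in KO, against 300.1 and 295 FPKM in WT (log2 fold change 0.15, SE 0.07, adjusted p = 0.169). Psme2 had 187 and 260.1 FPKM in KO and 272 and 224 FPKM in WT (adjusted p = 0.532), with both genotypes widely spread. Psme2b, an intronless copy of Psme2, fell to 166 and 195 FPKM in KO, against 314 and 252 FPKM in WT (log2 fold change -0.64, SE 0.14, adjusted p = 0.0256).

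Psme2 (chromosome 14, 55587441 to 55591113, minus strand, GRCm38) and Psme2b (chromosome 11, 48945354 to 48946190, minus strand) differ at 5 of 717 coding bases, so a read from the coding part that covers none of these bases fits both genes equally. The stretch with most differences, coding bases 484 to 543, is shown with the 3 differing bases in capitals, as read from the GENCODE M21 transcripts.
Psme2: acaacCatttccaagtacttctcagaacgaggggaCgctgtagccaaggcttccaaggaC
Psme2b: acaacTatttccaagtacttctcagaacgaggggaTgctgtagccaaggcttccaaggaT

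The value of each gene is therefore uncertain, and the call of Psme2b with it. Their sum was 353 and 455 FPKM in KO, against 586 and 476 FPKM in WT, lower in both KO libraries by an amount that ranged widely. The ratio of Psme2 to Psme2b was 1.13 and 1.34 in KO, against 0.865 and 0.892 in WT, so the split itself differed between the genotypes.

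The nuclear activator gene Psme3 rose to 146 and 149 FPKM in KO, against 110 and 126 FPKM in WT (log2 fold change 0.33, SE 0.09, adjusted p = 0.0496). That p lies just under the threshold, and the call was lost under 9 of 15 alternatives. Psme4, a large single-chain activator, had 16.0 and 17.3 FPKM in KO, against 13.99 and 14.7 FPKM in WT (adjusted p = 0.161). Psmf1, the core inhibitor PI31, had 34.0 and 29.5 FPKM in KO, against 26.4 and 25.8 FPKM in WT (log2 fold change 0.27, SE 0.10, adjusted p = 0.0978). Neither gene overlapped between the genotypes.

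**Figure D4:**
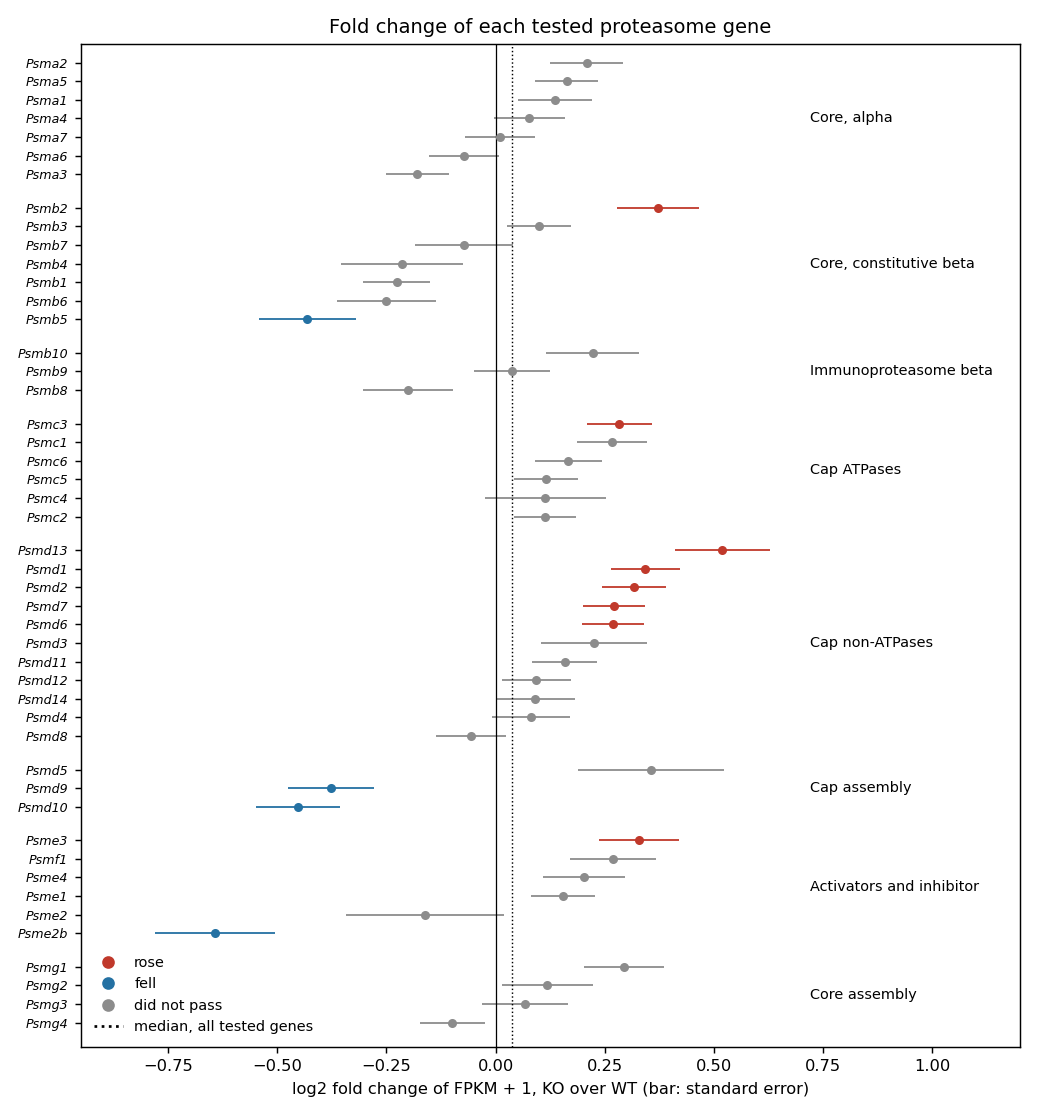
Log2 fold change of FPKM + 1 (KO over WT, bars are standard errors) for the 47 tested proteasome genes by class, red where the gene rose, blue where it fell and grey where it did not pass; the dotted line is the median of all tested genes, 0.04. The cap genes lie to the right of 0 except Psmd8, while the core, the assembly factors and the activators spread to both sides.

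Psmc3ip, the match that encodes no subunit, had 21.8 and 19.3 FPKM in KO, against 15.6 and 15.5 FPKM in WT (log2 fold change 0.37, SE 0.10, adjusted p = 0.0415). Its exons share 385 bases, 21.2% of their length, with Mlx on the opposite strand. Mlx had 50.6 and 38.8 FPKM in KO and 36.7 and 36.2 FPKM in WT. The call of Psmc3ip was lost with quantile normalization, with scaling by median ratios, without the variance trend and with the replicate block. The 10 proliferation genes listed all rose, against 15.4% of all tested genes and 20.4% of those at 50 FPKM or more. That list was chosen with earlier results of these data known. Among its genes, Mki67 had 133 and 126 FPKM in KO, against 46.4 and 49.5 FPKM in WT. The part of the proliferation genes in the members' values was not tested.

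The WT libraries were further apart than the KO libraries for 33 of the 48 tested members. For 18 members the gap between the WT libraries exceeded the difference between genotype means, and for 7 the gap between the KO libraries did. These counts were not made over all tested genes, so they are not a result about the members. Over all 11947 tested genes the Pearson correlation was 0.986 for the WT pair and 0.991 for the KO pair. The gap between the WT libraries followed base composition. Across the 48 members the difference of WT replicate 1 and WT replicate 2 had a Spearman rho of 0.56 with transcript GC content. Across all 11904 tested genes with a GC value the rho was 0.47. These are descriptions across genes of 1 library pair, and genes are not independent replicates. GC content had little relation to the fold change between genotypes, with a rho of -0.06 across members. With the GC trend removed in each library, an alternative added after seeing the data, 9 members rose and 6 fell, 5 of the risers being cap subunits. Psmd6 was the cap subunit that no longer passed, with an adjusted p of 0.0579, and Psmb10 passed as higher, with an adjusted p of 0.0308. The fall of Psmb5 then had an adjusted p of 0.0213, and Psma3 and Psmb1 passed as lower, with adjusted p of 0.0292 and 0.0235.

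**Figure D5:**
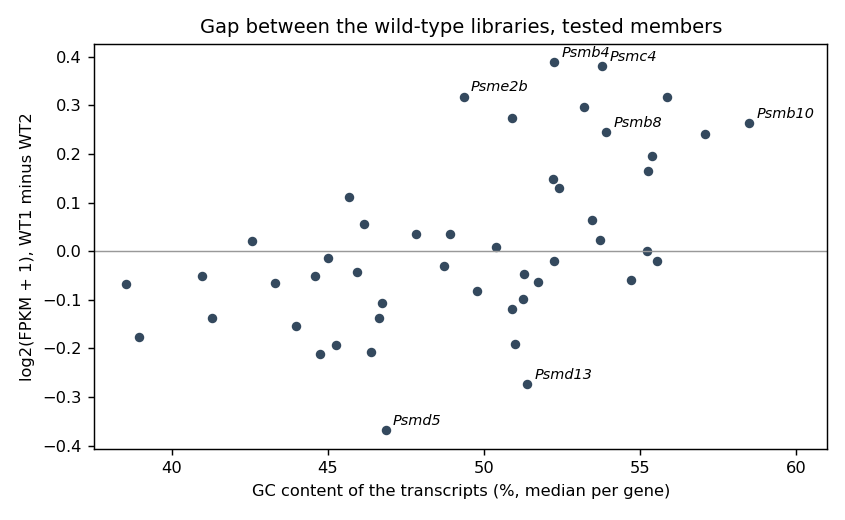
Difference in log2(FPKM + 1) between WT replicate 1 and WT replicate 2 for each of the 48 tested members, against the median GC content of the gene's transcripts in percent. The GC-rich genes on the right, such as Psmb8 and Psmb10, lie mostly above 0, and Psmd13 and Psmd5 are the lowest.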

How the data were processed

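RNA sequencing libraries of tumour-infiltrating T cells (2 KO, 2 WT) were analysed. The authors deposited FPKM values per Ensembl gene, made with HISAT and Cuffnorm on GRCm38 per the submitters' processing notes. For versions, annotation, strand and scaling option, the answer is not given in the sources used here. Fragment counts are not part of the table, so the depth is unknown and no counting interval can be given. Symbols came from GENCODE M21 for 21028 of 21146 genes. The 11947 genes reaching 1 FPKM in 2 or more libraries were fitted as log2(FPKM + 1) with limma 3.58.1 in R 4.3.3, with a mean-variance trend, two-sided, and Benjamini-Hochberg adjustment over all of them at 0.05. Residual degrees of freedom were 2. Fold changes on this scale understate those of low genes. "Rose" and "fell" mean past that threshold. The fit was also run on simulated data with planted changes, as a check of the code and not of the calls reported here. The labels do not say whether equally numbered libraries were paired, and the fit as reported treated them as unpaired. Copies were sought with BLAST+ 2.17.0, at 90% identity or more over at least 50% of the coding sequence. Tables and plots used Python 3.11.15, pandas 2.3.3 and matplotlib 3.10.9. Classes, lists and the rule for named genes (the catalytic, inducible, activator and tissue-specific members, the lowest and highest p of each other class, set partners) were chosen with earlier results of these data known. The rule allows every member to be named, and genes that share exons or sequence with a member were named after seeing the data. Alternatives covered pseudocount, filter, scaling, variance model, threshold, replicate block, each library left out and a GC trend. Paaf1, Ms4a1, Pax5 and C1qa were not analysed here, and some genes were left out of the lists because they are not reported here.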

Additional observations from a re-analysis of the deposited data

How the results depend on the processing

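All 13 called members kept their sign under all 15 alternatives at the 0.05 threshold, and none kept its call under every one. For most alternatives the sign was fixed in advance. A changed filter, variance model or replicate block leaves the fold change as it is. The KO and WT libraries of these 13 did not overlap, so leaving out a library or changing the pseudocount could not turn the sign. Only the scalings and the GC trend could have turned it. The counts of members that rose (9), members that fell (4) and cap subunits that rose (6) moved most. They were 0, 0 and 0 without a filter on low values, and 0, 0 and 0 at a threshold of 0.01. They were 23, 1 and 11 with equal FPKM totals, 1, 2 and 1 without the variance trend, and 2, 2 and 1 with the replicate block. Quantile normalization gave 4 members and 3 cap subunits that rose, and median-of-ratios scaling 3 and 3. Leaving out a library gave 0 to 6 members that rose, 0 to 6 that fell and 0 to 4 cap subunits that rose, where the lone library of a genotype is assumed to vary like the other genotype. Over all genes, 1839 rose and 1551 fell. These counts were 609 and 622 without a filter and 373 and 443 at a threshold of 0.01. With equal totals 3411 rose, and leaving out a library gave 189 to 1693 that rose and 390 to 1542 that fell. Removing the GC trend, added after seeing the data, gave 9 members that rose, 6 that fell and 5 cap subunits that rose. The share of all calls that were higher was 54.2%, and 75.3% with equal totals. The median fold change of all tested genes was 0.175 with equal totals and 0.037 as reported, and the cap median was 0.320 and 0.166. In the fit as reported 17 members had an unadjusted p under 0.05. Deviations of equally numbered KO and WT libraries had a correlation of -0.032 across genes. With 2 libraries per genotype this cannot settle whether the libraries were paired. The cause of these shifts was not tested. The lack of fragment counts limits what can be said of low genes.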
